A study of Saccharomyces cerevisiae with 16 samples.

Results

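The early response of wild-type (WT) cells to hydroxyurea (HU) was described by comparing 2 libraries of cells after 1 h in HU with 2 libraries of untreated cells. Genes were included when both libraries of at least 1 of these groups held 5 FPKM or more, and when the abundance estimate had succeeded in all 4 libraries. FPKM is an abundance that counts sequenced fragments relative to the length of the gene and to the size of the library. Of 7126 genes in the tables, 6467 were included. Both groups passed for 6173 of these genes, the untreated group alone for 68 and the 1 h group alone for 226. The direction of a gene that entered through 1 group alone is largely set by the rule, and the counts of the gene lists below include such genes. Just inside the limit were YCR102C (5.0002 FPKM in the library that decided it), YNL017C (5.01) and AIM26 (5.03), and just outside it were FUS2 (4.997), YLR122C (4.96) and FBP1 (4.93).

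All 4 libraries came from BY4741, a haploid laboratory strain of mating type a derived from S288C, grown in YPD medium. The treated cells had been in 200 mM HU for 1 h, and the untreated cells had received no drug. The series has 16 libraries in all, from WT cells and from cells that lack *LSM1* (*lsm1∆*), each untreated or kept in HU for 1, 2 or 4 h, with 2 libraries for each of these 8 conditions. The replicates are described in the study as a duplicate and as technical, so p-values here measure the spread between libraries and may not include that between cultures. The confidence intervals in the tables imply about 10900000 and 9970000 fragments on genes in the untreated libraries and 9800000 and 10700000 in the 1 h libraries, with a median of 323 fragments for an included gene in its lowest library. Fewer than 10 fragments were implied in every one of the 4 libraries for 293 included genes, among them all 207 tRNA genes. The genes of mating type a were present (*MFA1* 5861 and 7289 FPKM untreated and 6186 and 8258 FPKM after 1 h). The alpha pheromone gene *MF(ALPHA)1* did not exceed 1.29 FPKM in these libraries, and *URA3*, *LEU2* and *MET17*, which BY4741 lacks, were listed at 0. *HIS3*, of which BY4741 keeps a part, was at 61.0 to 79.8 FPKM.

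HU inhibits ribonucleotide reductase, the enzyme that makes deoxyribonucleotides, so that DNA synthesis slows and replication forks stall in S phase. Stalled forks activate the checkpoint kinases Mec1, Rad53 and Dun1, which hold back mitosis, keep cells in S phase and relieve the repression of the ribonucleotide reductase genes. Separately, yeast cells under many kinds of stress induce genes of protection and energy storage through the transcription factors Msn2 and Msn4, and reduce the expression of genes for ribosomes. In libraries made from whole cultures, a lower value from fewer cells of a stage or type and one from less RNA per cell cannot be told apart.

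Changes are differences of log2(FPKM + 1), tested with limma in 1 fit of all 16 libraries, and a gene was called at a Benjamini-Hochberg adjusted p below 0.05 over 7023 tested genes. This scale understates the change of low genes. After 1 h in HU, 2457 of the included genes were called higher and 577 lower. Among all tested genes, 36.0% were called higher and 8.3% lower, so the shares of the included genes (37.99% and 8.92%) were near the background. The median change of all tested genes was 0.22, so values are read against it. Ribosomal protein mRNAs took 34.2% and 35.7% of the summed FPKM in untreated cells and 23.2% and 23.3% after 1 h, and their part in this shift was not tested. When each library was centred on its median, 989 included genes were called higher and 1231 lower (14.4% and 17.7% of all tested genes), and no gene was called in opposite directions on the 2 scales. The 989 genes that were called higher with centring had been called higher on the deposited scale, and the 577 that were called lower on the deposited scale stayed lower with centring. Centring lowers the change of every gene by the same amount, so this nesting was largely set in advance. A fall called on both scales is therefore no better supported than one called on the deposited scale.

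A change of at least 2-fold with a call on both scales was found for 280 included genes that rose and 174 that fell (4.17% and 2.52% of all tested genes), and one of at least 4-fold for 50 and 15. Without regard to the test, 5.6% of all tested genes were higher and 4.0% lower by at least 2-fold. Of the 281 genes lower by this measure, 141 were nuclear protein-coding. The 2 libraries of 1 group lay entirely above or below those of the other for 4605 of 6467 genes (71.2%, against 68.9% of all tested genes) and for all 3034 called genes. Where such a separation is given below for a gene called at 1 h, it therefore adds nothing to the call. The median change was 0.50 among genes called higher and -0.70 among genes called lower. Of the 6173 genes that passed in both groups, 2331 were called higher and 569 lower. A fit of these 4 libraries alone, with 2 residual degrees of freedom before moderation, called 834 included genes higher and 306 lower. Of the genes named below, the calls of *ARG1*, *CYC7*, *GPH1*, *PHM8*, *CSM3*, *HEF3*, *WTM1*, *CSE4*, *ORC5*, *ADE16*, *DIF1*, *MCM7*, *DUT1*, *CLN2*, *RPA190*, *SML1*, *HTZ1*, *BRX1*, *ADE13*, *RPS28B*, *BTN2* and *ADE17* were lost in that fit, with the same changes.

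**Figure D1:**
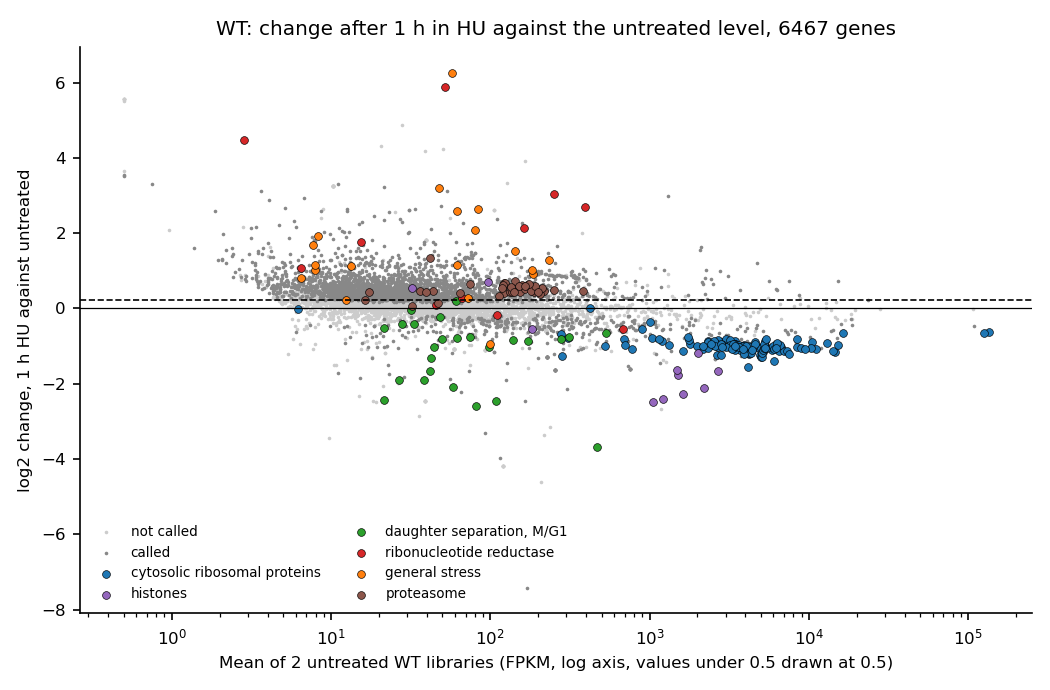
Each point is 1 of 6467 genes, with the mean of the 2 untreated libraries on the x axis (FPKM, log axis) and the log2 change after 1 h in HU on the y axis, and the dashed line marks the median change of all tested genes (0.22). The ribosomal protein genes form a dense group at high untreated levels and changes near -1.01, and *HSP12*, *HUG1* and *RNR3* lie at the top. The core histone genes lie mostly below the ribosomal ones, from -2.47 to -1.19, against a lowest ribosomal change of -1.55.

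The change differed with the level before treatment. Both are taken from the same untreated libraries, so noise in these can produce part of such a relation, and that part was not tested. Below 5 FPKM in untreated cells a protein-coding gene could enter only if it was higher after 1 h, so these 123 genes are left aside. Between 10 and 30 FPKM, 1026 of 2059 genes were called higher and 35 lower, with a median of 0.29. At 1000 FPKM and above, 18 of 223 genes were called higher and 174 lower, with a median of -0.94, or -0.27 over the 96 genes there that are not ribosomal proteins. The protein-coding genes called higher had a median coding length of 1422 bases and a median untreated level of 24.4 FPKM, and those called lower had 915 bases and 322.9 FPKM. The part of length or level in the calls was not tested.

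The genes of ribonucleotide reductase were among those that rose most. The enzyme is made of large subunits, encoded by *RNR1* and its damage-inducible relative *RNR3*, and of small subunits, encoded by *RNR2* and *RNR4*. *RNR3*, which entered through its HU libraries alone, was at 2.61 and 3.05 FPKM untreated and 92.6 and 77.02 FPKM after 1 h (log2 change 4.48 ± 0.18 SE, adjusted p = 2.8e-07). *RNR2* was at 254 and 246 FPKM untreated and 2019 and 2128 FPKM after 1 h (log2 change 3.05 ± 0.06 SE, adjusted p = 1.6e-09). *RNR4* was at 401 and 389 FPKM untreated and 2478 and 2684 FPKM after 1 h (log2 change 2.70 ± 0.06 SE, adjusted p = 4.8e-09). The 2 small subunit genes moved nearly together. *RNR1* started from a higher level than *RNR3* and was at 148 and 179.7 FPKM untreated and 669 and 767 FPKM after 1 h (log2 change 2.13 ± 0.16 SE, adjusted p = 6.3e-06). In all 4 genes both HU libraries lay above both untreated ones, by 4.38-fold for the means of *RNR1*, 6.53-fold for *RNR4*, 8.29-fold for *RNR2* and 29.99-fold for *RNR3*.

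Crt1, encoded by *RFX1*, represses the reductase genes by binding X-boxes in their promoters and recruiting Tup1 and Cyc8. A conserved part of the X-box, written GTTGCCNNG and searched on both strands of the 500 bases before each start codon, was in 2.76% of 5978 promoters. It was in the promoters of *RNR2* and *RNR3*, which are shown because they rose most among the subunit genes, and it was not spelled in those windows of *RNR4* and *HUG1*. Sequences are from the RefSeq R64 assembly (sacCer3), read 5′ to 3′ towards the gene, with these letters in capitals on either strand.
RNR2 chrX:391958-391986 (+ strand): gcgcgatcgcCATGGCAACgaggtcgcac
RNR3 chrIX:240961-240989 (- strand): caaaaacccgGTTGCCATGgcgaggacca
The match lies 436 bases before the start codon in *RNR2*, where it reads on the opposite strand, and 271 bases before it in *RNR3*. A match is a description of the letters and not a measured binding site.

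*HUG1*, a small gene beside *SML1* that encodes an inhibitor of the reductase induced by the checkpoint, was at 47.02 and 56.4 FPKM untreated and 3277 and 2961 FPKM after 1 h (log2 change 5.89 ± 0.15 SE, adjusted p = 5.2e-09). The means differed by 60.3-fold, and its locus is below 300 bases, a length at which FPKM is less certain. The other inhibitor, *SML1*, moved in the opposite direction, at 668 and 699.7 FPKM untreated and 549 and 406 FPKM after 1 h (log2 change -0.53 ± 0.15 SE, adjusted p = 0.015). *SML1* lost its call without untreated replicate 2 (log2 -0.50, adjusted p = 0.075) and without HU replicate 2 (log2 -0.32, adjusted p = 0.10), with adjusted p from 0.0025 to 0.12 over all its alternatives. *DUN1*, the kinase that removes Sml1 and inactivates Crt1, was at 15.2 and 15.6 FPKM untreated and 57.9 and 51.1 FPKM after 1 h (log2 change 1.75 ± 0.10 SE, adjusted p = 2.1e-06). *RFX1* itself rose, at 7.17 and 5.84 against 15.6 and 13.9 FPKM (log2 change 1.07 ± 0.11 SE, adjusted p = 4.6e-05).

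The corepressor genes did not follow *RFX1*. *CYC8* was at 45.8 and 45.9 FPKM untreated and 47.3 and 50.6 FPKM after 1 h and was not called (log2 0.09, adjusted p = 0.40). *TUP1* was at 114 and 105 FPKM untreated and 97.8 and 95.5 FPKM after 1 h and was called lower only with centring (log2 -0.18 and adjusted p = 0.095 without it). The 2 genes that keep the small subunit in the nucleus rose by less than the subunit genes. *WTM1* was at 162 and 156 against 257 and 218 FPKM (log2 change 0.57 ± 0.09 SE, adjusted p = 0.00086). *DIF1* was at 68.4 and 64.3 against 78.8 and 82.9 FPKM (log2 change 0.28 ± 0.08 SE, adjusted p = 0.013). The call of *DIF1* was lost with centring, and it lost its call without untreated replicate 2 (log2 0.24, adjusted p = 0.086) and without HU replicate 2 (log2 0.24, adjusted p = 0.063), with adjusted p from 0.011 to 0.77 over all its alternatives. Of the 12 genes of the enzyme and its regulators, 9 were called higher and 1 lower, or 8 and 2 with centring, with a median change of 1.41.

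**Figure D2:**
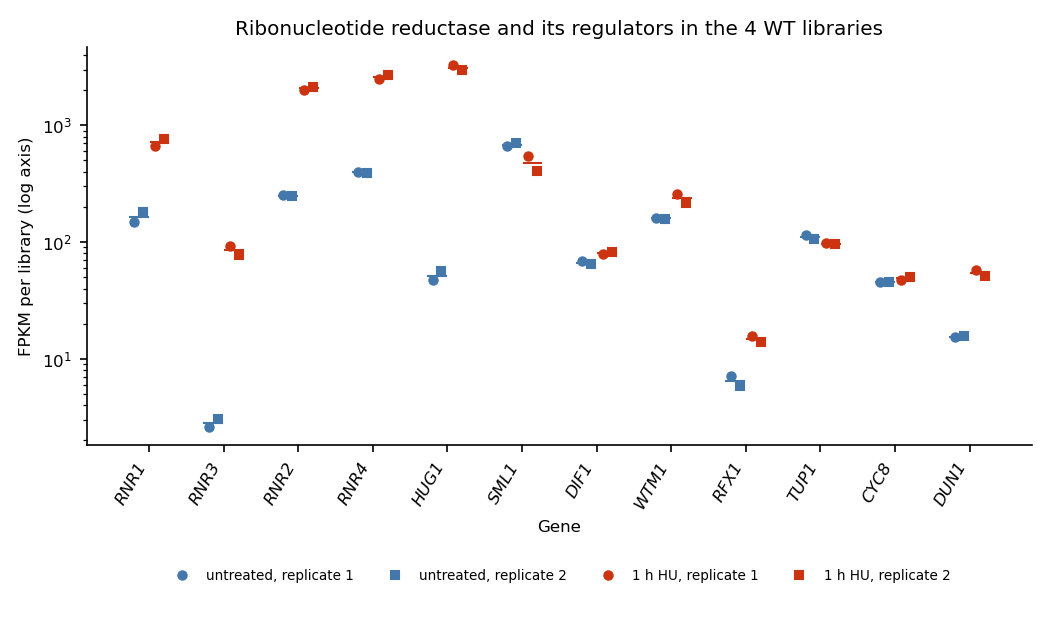
FPKM of the 12 genes of ribonucleotide reductase and its regulators on a log axis, with untreated libraries in blue and 1 h HU libraries in red, circles for replicate 1, squares for replicate 2 and short lines for the mean of 2. The 4 subunit genes, *HUG1*, *RFX1* and *DUN1* are clearly apart between groups, *SML1* is lower in HU, and *TUP1* and *CYC8* lie close together.

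Genes that act at stalled forks and on damaged DNA also rose, by smaller amounts. Of 18 checkpoint genes 15 were called higher and 0 lower (6 and 0 with centring), with a median of 0.39. *RAD53*, the central checkpoint kinase, was at 7.73 and 8.80 FPKM untreated and 26.2 and 26.2 FPKM after 1 h (log2 change 1.55 ± 0.08 SE, adjusted p = 1.7e-06), a 3.16-fold rise. *CTF18*, of the alternative clamp loader, was at 14.1 and 16.1 against 28.0050 and 27.3 FPKM (log2 change 0.83 ± 0.08 SE, adjusted p = 4.1e-05). *CSM3*, a fork protection factor, was at 9.21 and 12.6 against 19.99 and 19.5 FPKM (log2 change 0.82 ± 0.12 SE, adjusted p = 0.00047). Of 47 repair genes 37 were called higher and 0 lower (20 and 0 with centring), with a median of 0.48. By pathway these were 10 of 11 genes of homologous recombination, 10 of 11 of nucleotide excision repair, 8 of 9 of base excision or direct repair, 5 of 7 of mismatch repair and 4 of 9 of post-replication repair. With centring they were 6, 4, 3, 4 and 3 in the same order. Of all tested genes 36.0% were called higher, or 14.4% with centring. *RAD54*, which encodes a helicase of homologous recombination, was at 11.7 and 11.9 FPKM untreated and 32.3 and 34.4 FPKM after 1 h (log2 change 1.43 ± 0.09 SE, adjusted p = 3.6e-06). *MAG1*, a DNA glycosylase, was at 18.1 and 17.5 against 45.3 and 42.7 FPKM (log2 change 1.26 ± 0.09 SE, adjusted p = 4.2e-06). In each of the 5 genes named here both HU libraries were above both untreated libraries.

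The DNA synthesis machinery was unevenly affected. Polymerases and primase were called higher for 8 of 11 genes, and clamp, clamp loader, RPA and ligase genes for 8 of 12. In all, 23 of the 36 genes of the list were called higher and 1 lower (18 and 2 with centring, median 0.49). *RFA2*, a subunit of the single-strand binding protein RPA, was at 60.5 and 64.8 FPKM untreated and 153 and 150.3 FPKM after 1 h (log2 change 1.26 ± 0.09 SE, adjusted p = 4e-06). *SLD2*, which acts in origin firing, was at 10.8 and 11.9 against 25.6 and 28.8 FPKM (log2 change 1.19 ± 0.09 SE, adjusted p = 7.7e-06). *CDC45*, of the replicative helicase, was at 10.97 and 12.1 against 26.4 and 27.1 FPKM (log2 change 1.15 ± 0.11 SE, adjusted p = 2.1e-05). The 3 genes had no overlap between groups. *DUT1*, which removes dUTP, was the only gene of the list to fall on the deposited scale, at 139.6 and 144 against 115 and 104 FPKM (log2 change -0.37 ± 0.07 SE, adjusted p = 0.0016). The helicase and licensing genes did not share the rise. Of 14 such genes 2 were called higher and 1 lower (0 and 3 with centring), with a median of 0.03. The rises of *CDC6* (19.9 and 20.5 against 31.1 and 31.8 FPKM, log2 0.61) and *ORC5* (23.6 and 25.6 against 31.9 and 35.6 FPKM, log2 0.44) were not called with centring. The gene that fell, *MCM7* of the helicase, was at 34.8 and 35.8 against 28.1 and 28.8 FPKM (log2 change -0.30 ± 0.09 SE, adjusted p = 0.02). It lost its call without untreated replicate 1 (log2 -0.32, adjusted p = 0.057) and without untreated replicate 2 (log2 -0.28, adjusted p = 0.091) and without HU replicate 1 (log2 -0.28, adjusted p = 0.085), with adjusted p from 0.0015 to 0.091 over all its alternatives.

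Many replication genes carry the MluI cell-cycle box (MCB, ACGCGT, the same on both strands), which is bound by the MBF complex at the G1/S transition. It was in 5.44% of all promoters, in 58.3% of the 36 promoters of the DNA synthesis genes, in 33.3% of 18 checkpoint promoters and in 35.1% of 37 promoters of G1/S genes, and in 11.5% of the 262 promoters searched among genes that rose at least 2-fold. It is shown in capitals for genes of the reductase, checkpoint, RPA and cohesin groups, which all rose, and for 1 gene that did not. Of several boxes in a promoter, 1 or 2 are shown.
RNR1 chrV:298498-298523 (+ strand): aaaagaaaaaACGCGTaaacagtgtc
RNR1 chrV:298569-298594 (+ strand): ttctaagtaaACGCGTcattttgatc
RAD53 chrXVI:264461-264486 (- strand): ggtggtgtggACGCGTtgatacggca
RFA2 chrXIV:48157-48182 (+ strand): catatacgaaACGCGTtaggaaacgc
MCD1 chrIV:444381-444406 (+ strand): tcgaggagggACGCGTcgagaaaatc
YOX1 chrXIII:220906-220924 (+ strand): aaaACGCGTaaaccattca
The box did not always go with a rise. *YOX1*, a homeodomain repressor of M/G1 genes, holds the box 497 bases before its start codon and was at 17.1 and 17.2 FPKM untreated and 16.03 and 11.6 FPKM after 1 h, with no call (log2 -0.31, adjusted p = 0.076) except lower with centring.

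Among 37 genes of the G1/S transition 22 were called higher and 1 lower (15 and 8 with centring), with a median of 0.43. *PLM2*, a forkhead-associated domain protein that binds promoters at G1/S, was at 6.32 and 7.31 FPKM untreated and 57.4 and 60.2 FPKM after 1 h (log2 change 2.94 ± 0.09 SE, adjusted p = 2.8e-08), an 8.63-fold rise. The cohesin genes *MCD1* (24.2 and 28.2 against 68.98 and 72.9 FPKM, log2 change 1.41 ± 0.13 SE, adjusted p = 1.9e-05) and *IRR1* (17.3 and 19.6 against 49.7 and 47.3 FPKM, log2 change 1.35 ± 0.09 SE, adjusted p = 4e-06) rose together. The cyclin genes were mixed, with 2 of 7 called higher and 1 lower. *CLN2*, a G1 cyclin, fell, at 55.4 and 61.4 FPKM untreated and 44.8 and 44.6 FPKM after 1 h (log2 change -0.38 ± 0.07 SE, adjusted p = 0.0016).

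Core histone mRNAs fell in every case. All 8 genes were called lower on both scales, with a median change of -1.94 and a range from -2.47 to -1.19. *HTA2* was at 1055 and 1047 FPKM untreated and 203 and 175 FPKM after 1 h (log2 change -2.47 ± 0.14 SE, adjusted p = 1.8e-06). Its partner *HTB2* was at 1184 and 1233 against 248 and 207 FPKM (log2 change -2.41 ± 0.12 SE, adjusted p = 8.1e-07). The divergent pair *HTA1* and *HTB1* was at 1602 and 1624 against 362 and 303 FPKM and 1472 and 1499 against 465 and 491 FPKM (log2 -2.28 ± 0.13 and -1.63 ± 0.06 SE). In these 4 genes both HU libraries were below both untreated ones. The H3 and H4 genes fell too, with *HHT1* at 1473 and 1550.4 against 483 and 399.8 FPKM and *HHF1* at 2179 and 2215 against 591 and 444 FPKM (log2 -1.78 and -2.10). *HHT2* was at 2051 and 1956 against 992 and 780.4 FPKM and *HHF2* at 2734 and 2653 against 1014 and 719 FPKM (log2 -1.19 and -1.66). These groups did not overlap either. The copies of each histone are close in sequence and the way in which shared reads were divided is not given in the sources used here, so the split between copies is uncertain.

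The linker and variant histones behaved differently from one another. *HHO1*, the linker histone, rose, at 97.97 and 94.6 against 154 and 158 FPKM (log2 change 0.69 ± 0.07 SE, adjusted p = 2.6e-05). *CSE4*, the centromeric H3 variant, was at 32.5 and 32.2 against 43.0000 and 53.2 FPKM (log2 change 0.55 ± 0.11 SE, adjusted p = 0.0029), a call lost with centring. *HTZ1*, the H2A variant of promoters, fell at 175 and 193 against 134 and 117 FPKM (log2 change -0.55 ± 0.12 SE, adjusted p = 0.0046).

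**Figure D3:**
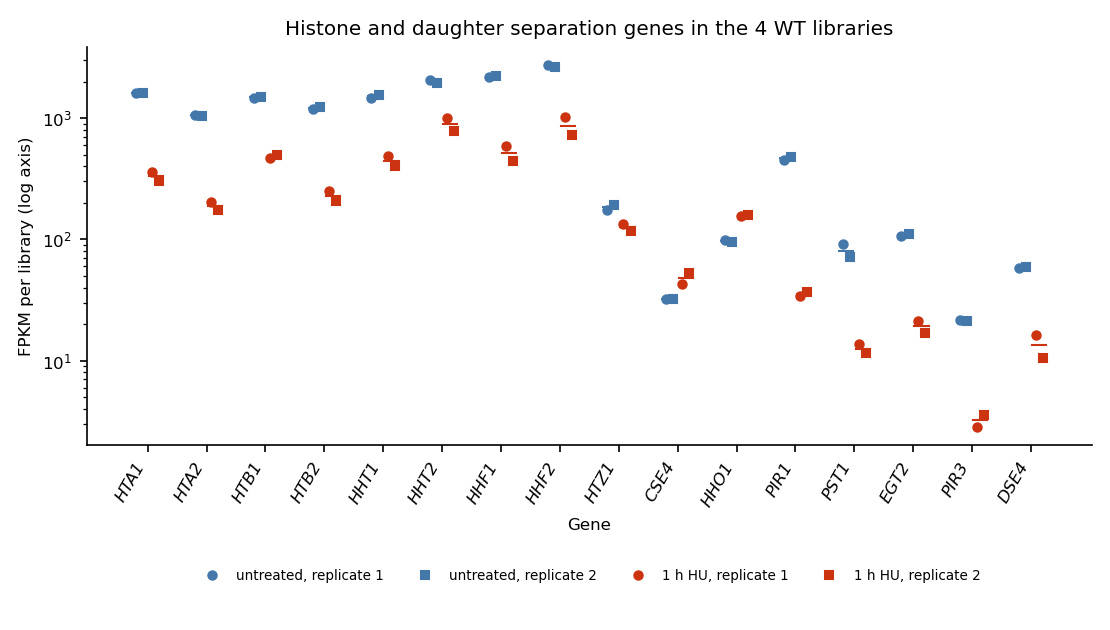
FPKM of 11 histone genes and of 5 wall genes of daughter separation on a log axis, with untreated libraries in blue and 1 h HU libraries in red, circles for replicate 1, squares for replicate 2 and short lines for the mean of 2. The 8 core histone genes and the wall genes are lower in both HU libraries than in both untreated libraries, while *CSE4* and *HHO1* are higher.

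Genes of the end of the cell cycle fell as well. At M/G1 transcription factors including Swi5 induce enzymes that dissolve the septum between mother and daughter, and of 25 genes of this phase 22 were called lower and 0 higher on both scales, with a median of -0.85. All 12 genes grouped under septum and cell wall were called lower, and they include wall proteins as well as hydrolases. *PIR1*, a wall glycoprotein, was at 449.8 and 480.2 FPKM untreated and 33.9 and 36.9 FPKM after 1 h (log2 change -3.68 ± 0.14 SE, adjusted p = 2.1e-07), a 13.1-fold fall and the largest among called protein-coding genes of at least 300 bases. *EGT2*, a wall protein of septum degradation, was at 106 and 110.5 against 21.2 and 17.02 FPKM (log2 change -2.45 ± 0.16 SE, adjusted p = 3.7e-06). *PST1*, a wall protein anchored by a lipid, was at 90.7 and 70.9 against 13.6 and 11.5 FPKM (log2 change -2.59 ± 0.16 SE, adjusted p = 3.1e-06). In these 3 genes both HU libraries were far below both untreated ones. *PIR3*, a relative of *PIR1*, was at 21.5 and 21.4 against 2.84 and 3.58 FPKM (log2 change -2.42 ± 0.23 SE, adjusted p = 2.6e-05), and entered through its untreated libraries alone. *DSE4*, a daughter-specific glucanase, was at 58.04 and 58.9 against 16.3 and 10.5 FPKM (log2 change -2.07 ± 0.22 SE, adjusted p = 4.9e-05). Its HU libraries differed more from each other than those of *PIR1* did.

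The motif ACCAGC of Swi5, on either strand, was in 52.0% of the 25 promoters of this list and in 13.3% of all promoters. It is shown in capitals for genes among those that fell most, reading on the opposite strand in both.
PIR1 chrXI:143013-143038 (- strand): atattagaacGCTGGTatactaatta
EGT2 chrXIV:23653-23678 (+ strand): tatagcctctGCTGGTtcctttagta
EGT2 chrXIV:23841-23866 (+ strand): tgagtaagatGCTGGTttgatgctaa

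The G2/M genes of the *CLB2* cluster, which are induced by Mcm1 with forkhead factors, were split. Of 29 genes 14 were called lower and 4 higher (21 and 1 with centring), with a median of -0.30, and the forkhead motif GTAAACAA was in 34.5% of their promoters against 4.62% of all. The list mixes functions. It includes *MCM7*, also counted above with the licensing genes, whose change is this median. It also includes the ergosterol gene *ERG3*, called higher (log2 0.44) but not with centring. *HOF1*, which acts in cytokinesis, was at 15.1 and 15.4 FPKM untreated and 3.86 and 3.15 FPKM after 1 h (log2 change -1.86 ± 0.18 SE, adjusted p = 3e-05). It entered through its untreated libraries alone. *KIN3*, a kinase of the NIMA family, was at 16.5 and 19.8 against 6.10 and 7.15 FPKM (log2 change -1.33 ± 0.14 SE, adjusted p = 6.7e-05). *CHS2*, the chitin synthase of the primary septum, was at 25.1 and 27.3 against 11.3 and 12.7 FPKM (log2 change -1.06 ± 0.17 SE, adjusted p = 0.00068). The 4 genes of the list that rose are exceptions. *CLB1*, a mitotic cyclin, moved the other way, at 33.7 and 36.2 against 53.7 and 52.8 FPKM (log2 change 0.59 ± 0.09 SE, adjusted p = 0.00056).

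Spindle and kinetochore genes stayed near the median of all genes. Of 32 genes 17 were called higher and 1 lower, but 2 and 2 with centring, with a median of 0.27. *SPC42*, of the spindle pole body, was called on both scales (18.3 and 18.9 against 28.2 and 30.3 FPKM, log2 change 0.62 ± 0.08 SE, adjusted p = 0.00021). *ASE1*, a midzone bundler, was the only one to fall on the deposited scale (15.7 and 17.3 against 9.87 and 9.77 FPKM, log2 change -0.69 ± 0.15 SE, adjusted p = 0.004). The cell-cycle stage of the cultures is not measured by these files, and its part in the changes of histone, G1/S, G2/M and M/G1 genes was not tested.

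A stress gene was among the largest rises. *HSP12*, a small membrane-associated stress protein, was at 32.1 and 82.3 FPKM untreated and 4757 and 3399 FPKM after 1 h (log2 change 6.26 ± 0.51 SE, adjusted p = 9.6e-06), and the ratio between its untreated libraries was larger than that between its HU libraries. Its change exceeded that of *HUG1* in all 4 libraries, but was 5.59 against 5.76 for *HUG1* without untreated replicate 1. Of 19 general stress genes of Msn2 and Msn4, 13 were called higher and 0 lower (13 and 1 with centring), with a median of 1.16. *DDR2*, a small gene induced by many stresses, was at 58.9 and 35.8 FPKM untreated and 439 and 415 FPKM after 1 h (log2 change 3.19 ± 0.51 SE, adjusted p = 0.00072). *UBI4*, the stress gene for polyubiquitin, was at 99.7 and 67.4 against 609.6 and 436 FPKM (log2 change 2.64 ± 0.19 SE, adjusted p = 5.3e-06), and its repeats share sequence with other ubiquitin genes.

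Storage carbohydrate genes rose with them. Trehalose genes were called higher in 6 of 7 cases and glycogen genes in 6 of 11, with 0 of the 18 lower (10 and 0 with centring, median 0.84). *PGM2*, the phosphoglucomutase that feeds both pathways, was at 28.4 and 14.4 FPKM untreated and 220.4 and 178 FPKM after 1 h (log2 change 3.22 ± 0.25 SE, adjusted p = 7.7e-06). *GDB1*, the glycogen debranching enzyme, was at 6.62 and 5.43 against 31.9 and 29.1 FPKM (log2 change 2.17 ± 0.14 SE, adjusted p = 3.1e-06). *GPH1*, glycogen phosphorylase, was at 16.6 and 8.13 against 47.2 and 44.7 FPKM (log2 change 1.89 ± 0.24 SE, adjusted p = 0.00019).

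The stress response element (STRE, AGGGG) was in 34.1% of all promoters, in 84.2% of the 19 stress promoters, in 83.3% of the 18 storage promoters and in 62.6% of the 262 promoters of genes that rose at least 2-fold. Among the 123 promoters of genes that fell at least 2-fold it was in 29.3%, and in 40.0% of the 50 that are not ribosomal protein genes. It is shown for *HSP12*, *PGM2* and *HXK1*, which are among the 12 largest rises, with some of the copies of the element, in capitals on either strand.
HSP12 chrVI:106811-106835 (+ strand): gcatctgttaAGGGGatatgttgca
HSP12 chrVI:106832-106856 (+ strand): tgcaacttgcAGGGGgcggcacaaa
HSP12 chrVI:106869-106893 (+ strand): cgtagtaaagAGGGGaaaaggaaaa
PGM2 chrXIII:477897-477921 (- strand): gctcacgaaaAGGGGtggtgtcgcg
PGM2 chrXIII:477851-477875 (- strand): cttacgtgaaAGGGGacgttatact
HXK1 chrVI:255513-255537 (- strand): cactattctgCCCCTttgaaactcc
HXK1 chrVI:255372-255396 (- strand): tttttttttaAGGGGttgatgaaaa

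The genes of peroxide and redox defence were higher in 24 of 35 cases and lower in 1 (21 and 3 with centring, median 0.67), and 20 of the 23 genes of peroxiredoxins, thioredoxins and glutathione were called higher. *TSA2*, a thioredoxin peroxidase, was at 13.1 and 12.2 FPKM untreated and 94.5 and 74.8 FPKM after 1 h (log2 change 2.64 ± 0.17 SE, adjusted p = 3.3e-06). *SRX1*, the sulfiredoxin that repairs oxidized peroxiredoxins, was at 7.05 and 11.1 against 38.3 and 40.4 FPKM (log2 change 2.03 ± 0.20 SE, adjusted p = 2.7e-05). *GTT1*, a glutathione transferase, was at 43.5 and 41.4 against 200.2 and 171 FPKM (log2 change 2.10 ± 0.12 SE, adjusted p = 2.3e-06). The Yap1 motif TTACTAA was in 17 of 34 promoters of this list and in 11.8% of all, and each of these 3 genes holds it, in capitals on either strand.
TSA2 chrIV:1366119-1366145 (- strand): gttttttttgTTAGTAAgcgctacgac
SRX1 chrXI:277970-277996 (+ strand): ttttccctgaTTAGTAAgctacatcat
GTT1 chrIX:424662-424688 (- strand): ctacggccatTTACTAAtgattttcac

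Heat-shock chaperones did not move as a group. Of 24 genes 9 were called higher and 5 lower (5 and 8 with centring), with a median of 0.11. *HSP26*, a small chaperone, was at 17.8 and 12.4 FPKM untreated and 75.7 and 73.2 FPKM after 1 h (log2 change 2.25 ± 0.28 SE, adjusted p = 0.00017). *SSA4*, an inducible Hsp70, was at 15.4 and 10.9 against 31.6 and 37.99 FPKM (log2 change 1.35 ± 0.14 SE, adjusted p = 3.7e-05). The HU libraries of both were above the untreated ones. In the other direction *HSP30*, a protein of the plasma membrane, was at 137 and 47.4 FPKM untreated and 8.95 and 5.75 FPKM after 1 h (log2 change -3.32 ± 0.49 SE, adjusted p = 0.00047). *BTN2*, which sorts misfolded proteins, was at 91.2 and 40.7 against 16.7 and 9.09 FPKM (log2 change -2.21 ± 0.38 SE, adjusted p = 0.0012). The untreated values of *HSP30* and *BTN2* differed by more than 2-fold between libraries, and both were above both HU libraries.

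Genes for the subunits of the proteasome rose by a small and even amount. All 14 genes of the 20S core and all 19 of the 19S particle were called higher, and 42 of the 45 genes of the list (27 with centring), with a median of 0.50 and none lower. Core genes ranged from 0.44 to 0.66 and 19S genes from 0.33 to 0.67. The 12 genes of assembly or transcription were less even, from 0.07 to 1.34, with 9 called higher (3 with centring). *TMA17*, a chaperone of base assembly, was at 52.1 and 31.9 against 113 and 96.9 FPKM (log2 change 1.34 ± 0.18 SE, adjusted p = 0.00027). *RPN6*, of the lid, was at 127 and 119 FPKM untreated and 197 and 195 FPKM after 1 h (log2 change 0.67 ± 0.06 SE, adjusted p = 2.2e-05). The assembly factor *UMP1* was at 143 and 141 against 245 and 232 FPKM (log2 change 0.74 ± 0.10 SE, adjusted p = 0.00034). The proteasome-associated control element (PACE, GGTGGCAAA), bound by Rpn4, was in 64.4% of the 45 promoters against 1.64% of all promoters and is shown in capitals for a core and a base subunit.
PRE2 chrXVI:732184-732212 (+ strand): acagcaaaagGGTGGCAAAacgaagaata
RPT6 chrVII:411352-411380 (- strand): atgcgagcgaGGTGGCAAAagttgtaata
Autophagy genes rose in 19 of 28 cases with 0 lower (15 and 0 with centring), with a median of 0.68. *ATG33*, of mitophagy, was at 19.2 and 16.6 against 50.9 and 46.7 FPKM (log2 change 1.40 ± 0.09 SE, adjusted p = 3e-06). *ATG22*, a vacuolar exporter of amino acids, was at 16.4 and 13.95 against 38.9 and 33.7 FPKM (log2 change 1.21 ± 0.13 SE, adjusted p = 6.7e-05).

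Genes for cytosolic ribosomal proteins fell almost without exception. Of 137 genes 135 were called lower on both scales, with quartiles of -1.07 and -0.93 around a median of -1.01, and the 2 not called were *RPS9A* (log2 0.02) and *RPL43A* (log2 -0.01), named after their values were seen. *RPS9A* was at 386 and 464 FPKM untreated and 431 and 424 FPKM after 1 h and its copy *RPS9B* at 4162 and 4276 against 1729 and 1913 FPKM. *RPL43A*, which overlaps *OPI11*, was listed at 8.70 and 3.80 against 6.53 and 5.11 FPKM while its copy *RPL43B* was at 3957 and 4363 against 2286 and 1841 FPKM. *RPL9A* fell most, at 3957 and 4398 FPKM untreated and 1369 and 1489 FPKM after 1 h (log2 change -1.55 ± 0.10 SE, adjusted p = 3.2e-06). *RPS22A* was at 5685 and 6324 against 2231 and 2306 FPKM (log2 change -1.40 ± 0.09 SE, adjusted p = 3.1e-06). *RPS28B* was at 4853 and 5244 against 2620.1 and 1597 FPKM (log2 change -1.30 ± 0.19 SE, adjusted p = 0.00046). Most of these genes are pairs of near-identical copies, so the value of 1 copy is less certain than that of the pair.

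Other genes of translation fell by less. Of 40 initiation and elongation factors 23 were called lower and 3 higher (33 and 2 with centring), with a median of -0.31. *YEF3*, the fungal elongation factor eEF3, was at 4123 and 4055 FPKM untreated and 2015 and 2513 FPKM after 1 h (log2 change -0.86 ± 0.16 SE, adjusted p = 0.0018). *EFB1*, an exchange factor of elongation, was at 3719 and 3805 against 2113 and 2182 FPKM (log2 change -0.81 ± 0.08 SE, adjusted p = 2.4e-05). Only 3 genes of the list rose. They include *HEF3*, a relative of *YEF3*, at 3.27 and 2.55 against 5.32 and 5.51 FPKM (log2 change 0.72 ± 0.14 SE, adjusted p = 0.0027). Another was the kinase gene *GCN2*, which slows initiation when amino acids are scarce, at 19.7 and 20.7 against 33.9 and 29.3 FPKM (log2 change 0.61 ± 0.08 SE, adjusted p = 0.00025). *HEF3* entered through its HU libraries alone.

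Some genes of ribosome biogenesis factors fell, more of them with centring. Of 104 factors 17 were called lower and 0 higher, and 43 lower with centring, with a median of -0.19. The median was 0.06 without 1 h HU replicate 1 and -0.44 without replicate 2, so its sign differed with the HU library left out. *UTP20*, which acts in early processing of rRNA, was at 94.4 and 88.6 against 53.3 and 60.98 FPKM (log2 change -0.67 ± 0.14 SE, adjusted p = 0.0036). *NOP56*, of the box C/D snoRNPs, was at 402 and 367 against 221 and 262 FPKM (log2 change -0.67 ± 0.11 SE, adjusted p = 0.00077). *BRX1* was at 201 and 182 against 99.7 and 144 FPKM (log2 change -0.67 ± 0.16 SE, adjusted p = 0.0073). The PAC motif (GATGAG) and the RRPE motif (AAAAATTT) were in 92.3% and 86.5% of their promoters, against 28.3% and 20.6% of all. Genes of RNA polymerases I and III were lower in 5 of 24 cases and higher in 1 (16 and 0 with centring, median -0.15). *RPA190*, the largest subunit of polymerase I, was at 226 and 211 against 139 and 173 FPKM (log2 change -0.49 ± 0.14 SE, adjusted p = 0.018). It lost its call without untreated replicate 1 (log2 -0.44, adjusted p = 0.09) and without HU replicate 1 (log2 -0.34, adjusted p = 0.13), with adjusted p from 0.0035 to 0.13 over all its alternatives. Mitochondrial ribosomal protein genes did not share the fall, with 33 of 71 called higher and 0 lower, but 3 and 6 with centring, around a median of 0.23.

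In amino acid synthesis the arginine genes stood out, with 8 of 10 called higher on both scales and a median of 1.20, while branched-chain genes were called higher in 2 and lower in 4 of 10, with a median of -0.11. *ARG3*, ornithine carbamoyltransferase, was at 4.77 and 2.47 FPKM untreated and 51.1 and 28.04 FPKM after 1 h (log2 change 3.12 ± 0.35 SE, adjusted p = 8.4e-05). *ARG1*, argininosuccinate synthetase, was at 29.96 and 24.2 against 226 and 93.1 FPKM (log2 change 2.39 ± 0.43 SE, adjusted p = 0.0016). Replicate 1 was the higher HU library in both. *ILV3*, of branched-chain synthesis, fell at 416 and 432 against 324 and 326 FPKM (log2 change -0.38 ± 0.09 SE, adjusted p = 0.0062). The Gcn4 motif TGACTCA was in 71.9% of the 32 promoters of the whole list and in 4.00% of all, and the list includes the branched-chain genes. It is in capitals for *ARG1* and *ARG3*.
ARG1 chrXV:218856-218882 (+ strand): gattttttagTGACTCAtgtcgcattt
ARG3 chrX:268475-268501 (+ strand): ggtcacgtcgTGACTCAtatgctttct

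Purine synthesis was the metabolic list with most falls. Of 20 genes 10 were called lower and 1 higher (13 and 0 with centring), with a median of -0.61. *ADE17*, of the last steps to IMP, was at 75.1 and 255 FPKM untreated and 15.96 and 37.7 FPKM after 1 h (log2 change -2.45 ± 0.66 SE, adjusted p = 0.013). Its untreated libraries differed by more than 3-fold. *ADE17* lost its call without untreated replicate 2 (log2 -1.57, adjusted p = 0.11) and without HU replicate 1 (log2 -1.85, adjusted p = 0.096), with adjusted p from 0.0054 to 0.12 over all its alternatives. *ADE13*, adenylosuccinate lyase, was at 218 and 358 against 115 and 154 FPKM (log2 change -1.07 ± 0.24 SE, adjusted p = 0.0054). The exception was *ADE16*, the paralogue of *ADE17*, at 109 and 103 against 135 and 129 FPKM (log2 change 0.31 ± 0.06 SE, adjusted p = 0.0018), a call lost with centring.

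Some genes of carbon metabolism rose. *HXK1*, a hexokinase, was at 60.9 and 46.4 FPKM untreated and 486 and 454 FPKM after 1 h (log2 change 3.12 ± 0.19 SE, adjusted p = 2.8e-06). *GLK1*, glucokinase, was at 195 and 130.2 against 856 and 595 FPKM (log2 change 2.16 ± 0.22 SE, adjusted p = 3.7e-05), with both HU libraries of each above both untreated ones. *PYK2*, a minor pyruvate kinase, was at 20.8 and 17.5 against 61.6 and 48.4 FPKM (log2 change 1.47 ± 0.14 SE, adjusted p = 2.1e-05). Glycolysis as a whole had 9 of 20 genes called higher and 0 lower (7 and 4 with centring, median 0.25). Among 17 hexose transporters and their regulators 10 were called higher and 0 lower (6 and 1 with centring, median 0.69). *HXT1*, a low-affinity carrier, was at 159.8 and 149.8 against 339.7 and 416 FPKM (log2 change 1.28 ± 0.12 SE, adjusted p = 2.4e-05). The glucose repressor gene *MIG2* was at 40.1 and 49.5 against 129 and 172 FPKM (log2 change 1.72 ± 0.30 SE, adjusted p = 0.0013). *ALD6*, the main cytosolic acetaldehyde dehydrogenase, was at 1062 and 1124 FPKM untreated and 1091 and 1476 FPKM after 1 h and was not called (log2 0.22 ± 0.18 SE, adjusted p = 0.37), and its lower HU library lay between the untreated ones.

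Respiration showed few changes. Nuclear genes of oxidative phosphorylation were called higher in 4 of 38 cases and lower in 0 (3 and 3 with centring, median 0.15). The 7 included genes of subunits encoded by mitochondrial DNA had 0 calls on the adjusted p, with a median of 0.02. The exceptions include *STF1*, a regulator of ATP synthase, at 72.6 and 62.2 against 335 and 318 FPKM (log2 change 2.26 ± 0.14 SE, adjusted p = 2.8e-06). *CYC7*, the cytochrome c of low oxygen, was at 10.2 and 4.9992 against 33.8 and 25.9 FPKM (log2 change 1.90 ± 0.28 SE, adjusted p = 0.00048). In the tricarboxylic acid cycle 11 of 22 genes were called higher and 1 lower (5 and 1 with centring, median 0.34). *LSC2*, of succinyl-CoA ligase, was at 67.6 and 83.8 against 204 and 198 FPKM (log2 change 1.41 ± 0.09 SE, adjusted p = 4e-06).

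Several other lists held fewer genes called higher with centring than without. Their counts stand against 36.0% of all tested genes called higher, or 14.4% with centring. The iron regulon was near both shares, and sulfur and phosphate genes were near the second. Sulfur and methionine genes were called higher in 12 of 21 cases and lower in 2 (4 and 3 with centring, median 0.41). *MET3*, ATP sulfurylase, was at 15.9 and 13.7 against 34.4 and 46.1 FPKM (log2 change 1.37 ± 0.13 SE, adjusted p = 1.9e-05). Phosphate genes were higher in 10 of 18 and lower in 0 (3 and 0, median 0.55). *PHM8*, a nucleotide phosphatase, was at 30.5 and 17.6 against 68.3 and 55.7 FPKM (log2 change 1.37 ± 0.23 SE, adjusted p = 0.001). Ergosterol genes were higher in 17 of 24 and lower in 0 (6 and 3, median 0.38). *ERG5*, a late enzyme of the pathway, was at 89.5 and 97.3 against 162 and 177 FPKM (log2 change 0.85 ± 0.10 SE, adjusted p = 0.00012). The promoters of iron regulon genes hold the Aft motif TGCACCC in 70.0% of 30 cases, against 2.33% of all. These genes were higher in 11 of 30 cases and lower in 1 (5 and 2, median 0.34). The siderophore transporter gene *SIT1* was at 70.6 and 65.3 against 165 and 131 FPKM (log2 change 1.10 ± 0.22 SE, adjusted p = 0.0026).

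Genes of mRNA decay and P-bodies, the cytoplasmic granules where untranslated mRNA and decapping factors gather, differed by role. Of 28 genes 9 were called higher and 1 lower, but 2 and 10 with centring, with a median of 0.11. Of all tested genes 14.4% were higher and 17.7% lower with centring. Of 8 genes of the Lsm1-7 ring and Pat1, 0 were higher and 1 lower (0 and 5 with centring, median -0.07). Of 10 deadenylase genes 5 were higher and 0 lower (0 and 1 with centring, median 0.17). *LSM1*, of the ring that activates decapping, was at 171 and 181 FPKM untreated and 175 and 167 FPKM after 1 h, was not called (log2 -0.04 ± 0.20 SE, adjusted p = 0.88), and overlapped between groups. Of 10 decapping or exonuclease genes 4 were called higher and 0 lower (2 and 4 with centring), with a median of 0.27. The 2 large rises given next do not stand for this group. *DCS1*, the scavenger enzyme that hydrolyses the released cap, was at 39.3 and 37.8 FPKM untreated and 151 and 119 FPKM after 1 h (log2 change 1.77 ± 0.11 SE, adjusted p = 3.2e-06). *DCS2*, its stress-induced relative and inhibitor, was at 8.71 and 6.84 against 35.8 and 24.5 FPKM (log2 change 1.81 ± 0.22 SE, adjusted p = 0.00012).

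Cell wall, mating and drug export genes were mixed. Cell wall genes were called higher in 7 of 28 cases and lower in 3 (1 and 8 with centring, median 0.08). The 3 include *PIR1*, already counted with the daughter separation genes. *GSC2*, the stress-induced glucan synthase, was at 17.9 and 15.2 against 39.9 and 39.5 FPKM (log2 change 1.22 ± 0.12 SE, adjusted p = 3.9e-05). The wall protein gene *HSP150* was at 1251 and 1072 against 449 and 397 FPKM (log2 change -1.45 ± 0.11 SE, adjusted p = 6.3e-06). Pheromone response genes were higher in 6 of 21 cases and lower in 1 (2 and 1, median 0.20). *KAR4*, a regulator of karyogamy genes, was at 28.7 and 29.3 against 48.3 and 52.9 FPKM (log2 change 0.78 ± 0.06 SE, adjusted p = 8.1e-06). Multidrug export genes were higher in 5 of 20 cases and lower in 0 (3 and 4, median -0.02). The regulator gene *PDR1* was at 26.5 and 26.2 against 47.97 and 44.3 FPKM (log2 change 0.78 ± 0.08 SE, adjusted p = 6.4e-05). Acetaldehyde and ethanol genes were higher in 6 of 9 cases (3 with centring, median 0.29), sporulation genes in 5 of 8 (2, median 0.36) and seripauperin genes, which are many and close in sequence, in 1 of 8 (1, median 0.48), with 0 lower in these lists. The rule included 8 of 23 tested sporulation genes and 8 of 24 tested seripauperin genes, so these counts do not describe the whole lists.

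**Figure D4:**
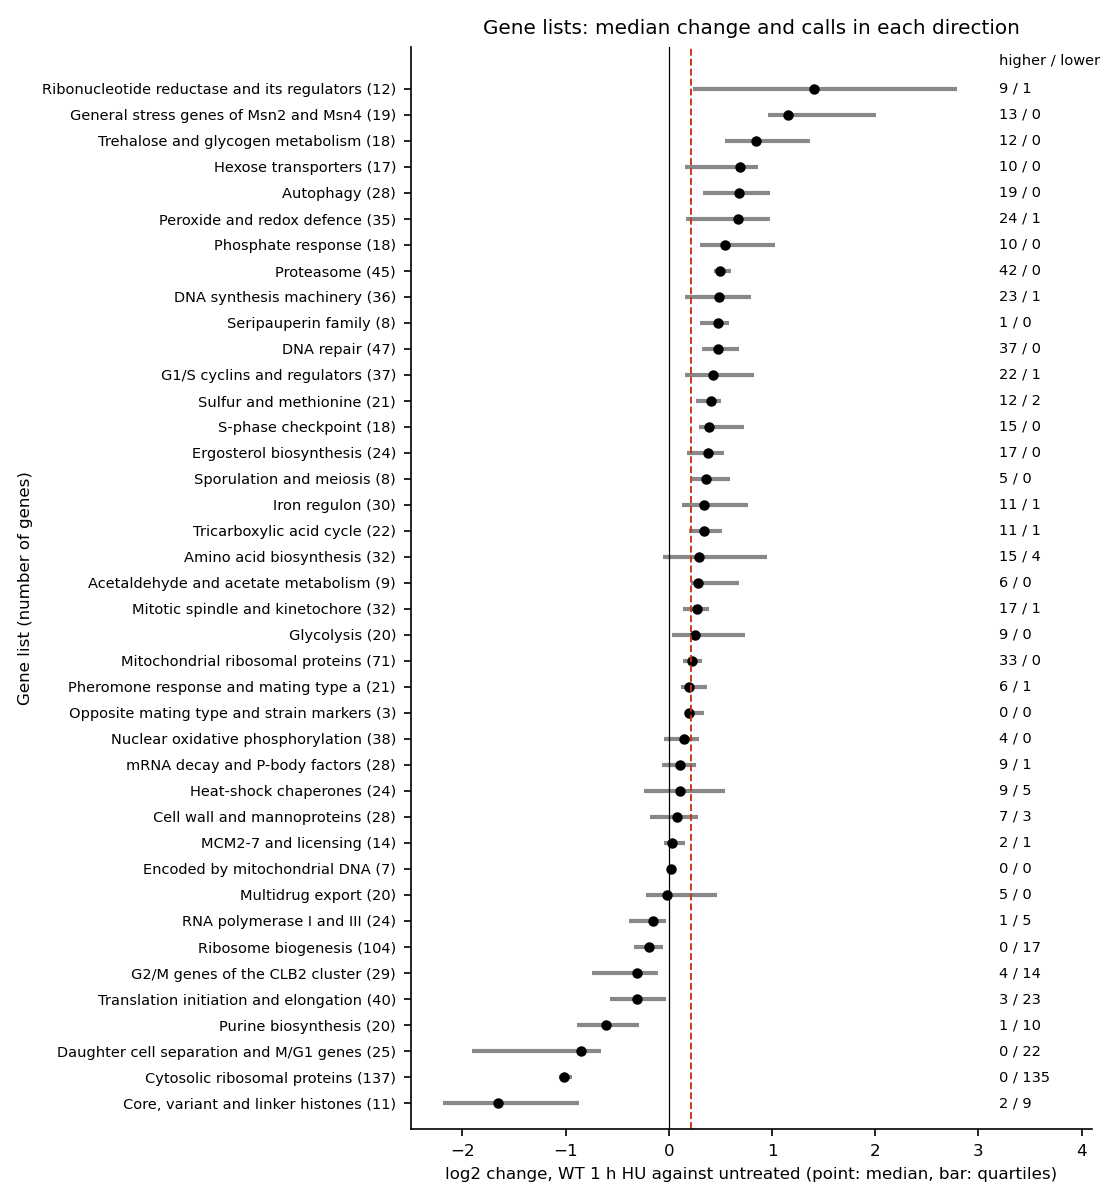
For 40 lists the point is the median log2 change of the included genes after 1 h in HU and the bar runs between the quartiles, with the numbers called higher and lower at the right and the median of all tested genes (0.22) as a dashed line. Ribonucleotide reductase (1.41), general stress (1.16) and storage carbohydrates (0.84) are at the top, and histones (-1.66), ribosomal proteins (-1.01) and daughter separation (-0.85) at the bottom.

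**Figure D5:**
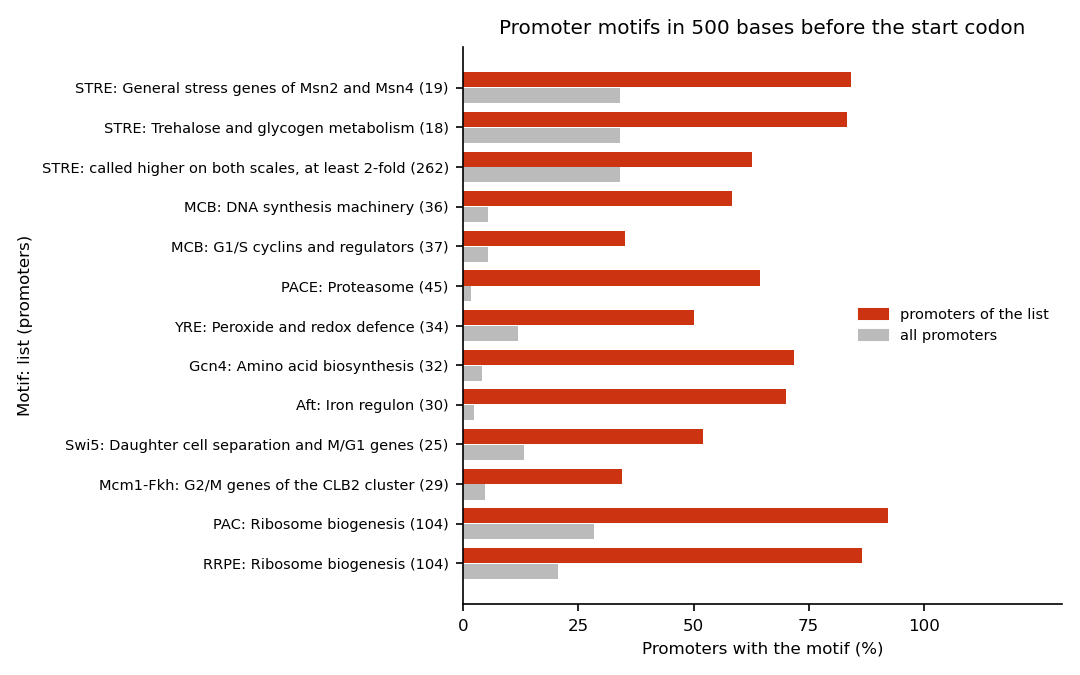
The percentage of promoters (500 bases before the start codon) that hold a motif is drawn in red for a list and in grey for all 5978 promoters. PACE in proteasome promoters (64.4% against 1.64%) and MCB in DNA synthesis promoters (58.3% against 5.44%) are examples, and STRE in general stress promoters is at 84.2% against 34.1%.

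Outside these lists 3 more genes were among the 12 largest rises. *BOP2*, of unknown function, was at 3.79 and 4.40 FPKM untreated and 42.1 and 31.4 FPKM after 1 h (log2 change 2.88 ± 0.21 SE, adjusted p = 4.8e-06). *TFS1*, an inhibitor of carboxypeptidase Y, was at 37.3 and 29.96 against 227 and 202 FPKM (log2 change 2.64 ± 0.12 SE, adjusted p = 7.1e-07). *GPM2*, a relative of phosphoglycerate mutase, was at 5.78 and 4.53 against 46.5 and 31.3 FPKM (log2 change 2.68 ± 0.23 SE, adjusted p = 1.4e-05). In all 3 both HU libraries were above both untreated libraries, and *BOP2* and *GPM2*, like *RNR3*, *ARG3* and *CYC7*, entered through the HU libraries alone.

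RNA genes and very short genes were measured poorly. Small nuclear and nucleolar RNA genes were called lower in 22 of 83 cases and higher in 0, with a median of -0.39, and 44 of them were lower with centring. tRNA genes were called lower in 32 of 207 cases, all of them on fewer than 10 implied fragments. *tC(GCA)Q*, a tRNA gene for cysteine, was at 162 and 177 FPKM untreated and listed at 0 in both HU libraries, on about 1 fragment. *tC(GCA)Q* lost its call without untreated replicate 1 (log2 -7.48, adjusted p = 0.11) and without untreated replicate 2 (log2 -7.35, adjusted p = 0.12) and without HU replicate 1 (log2 -7.41, adjusted p = 0.11) and without HU replicate 2 (log2 -7.41, adjusted p = 0.1), with adjusted p from 0.0039 to 0.12 over all its alternatives. *YCR108C* and *YKL096C-B*, the short genes with the largest calls upward, were listed at 0 in both untreated libraries and at 18.3 and 5.73 FPKM and 7.86 and 14.4 FPKM after 1 h, on 5 and 2 fragments at most. *YKL096C-B* lost its call without HU replicate 2 (log2 3.15, adjusted p = 0.054), with adjusted p from 0.00037 to 0.054 over all its alternatives. Calls on fewer than 10 fragments in every library made up 39 of the 3034.

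A further limit is that the kit does not mark the strand, so reads from overlapping genes cannot be told apart. Of the included genes 1207 overlap another gene, among them 398 of those called higher and 99 of those called lower. Of the genes with values here, *CDC6* overlaps YJL195C by 605 bases, *NOP56* YLR198C by 326, *HEF3* YNL013C by 321, *GPH1* YPR160C-A by 285, *RNR2* YJL026C-A by 222, *CYC8* YBR113W by 205, *HXK1* YFR052C-A by 143, *CTS1* YLR286W-A by 135, *GLK1* YCL042W by 106, *EFB1* the intron-encoded snR18 by 102 and *DCS1* YLR269C by 31.

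The change at 1 h was compared with that of *lsm1∆* cells, which lack a decapping activator, by the interaction of strain and HU. The interaction was called for 33 included genes, 19 higher and 14 lower (0.498% of all tested genes). Of these, 13 were called higher in WT and had a lower log2 change in *lsm1∆*, and 15 were called lower in WT and had a higher one. Some of the 13 did not rise in *lsm1∆*, such as *CLB1* (log2 0.59 in WT and -0.23 in *lsm1∆*). *PIR1* had the largest difference, with 806 and 772 FPKM untreated and 314 and 285 FPKM after 1 h in *lsm1∆* (log2 -3.68 in WT and -1.40 in *lsm1∆*, difference 2.28 ± 0.20 SE, adjusted p = 0.0043), and its call was kept under every alternative, with adjusted p from 0.0012 to 0.032. *HUG1* was at 95.7 and 81.2 FPKM untreated and 1493 and 1255 FPKM after 1 h there (log2 5.89 in WT and 3.94 in *lsm1∆*, difference -1.95 ± 0.21 SE, adjusted p = 0.011). Its difference lost the call without *lsm1∆* untreated replicate 1 (log2 -1.83, adjusted p = 0.051), with adjusted p from 0.0032 to 0.10 over all its alternatives. *RNR4* also differed (log2 2.70 in WT and 2.02 in *lsm1∆*, difference -0.69 ± 0.09 SE, adjusted p = 0.027). So did *HTA2* (log2 -2.47 in WT and -1.32 in *lsm1∆*, difference 1.15 ± 0.19 SE, adjusted p = 0.038) and *HTB1* (log2 -1.63 in WT and -1.09 in *lsm1∆*, difference 0.55 ± 0.09 SE, adjusted p = 0.037). The difference of *RNR3* was not called (log2 4.48 in WT and 4.58 in *lsm1∆*, adjusted p = 0.89). The differences of *HTA2* and *HTB1* were not called when any 1 of the 8 libraries was left out (adjusted p up to 0.18 and 0.16 over all alternatives), and that of *RNR4* was not called in 7 of these 8 cases (up to 0.10). Over all tested genes, 20 genes were called higher and 15 lower, and fits without 1 library called 2 to 9 and 0 to 7. The changes in the 2 strains share no library. The interaction itself holds the WT change with a minus sign, so a high or low value in a WT library moves both it and the WT call.

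From 1 h to 2 h in HU, 49 included genes of WT cells were called higher and 167 lower (0.769% and 2.38% of all tested genes, or 71 and 69 tested genes with centring). *HUG1* went on rising, to 10604 and 9077 FPKM at 2 h (log2 1.65 ± 0.15 SE from 1 to 2 h, adjusted p = 0.00038). The small subunit genes rose too. *RNR2* reached 3555 and 3585 FPKM at 2 h (log2 0.78 ± 0.06 SE from 1 to 2 h, adjusted p = 0.00014), and *RNR4* reached 4283 and 4312 FPKM at 2 h (log2 0.74 ± 0.06 SE from 1 to 2 h, adjusted p = 0.00038). In these 3 genes both 2 h libraries were above both 1 h libraries. Among daughter separation genes *DSE2*, a daughter-specific secreted protein, fell further, from means of 278 and 159 FPKM in untreated and 1 h libraries to 23.3 and 22.5 FPKM at 2 h (log2 -2.74 ± 0.07 SE from 1 to 2 h, adjusted p = 2.9e-08). The chitinase gene *CTS1* fell to 62.6 and 74.2 FPKM at 2 h (log2 -2.29 ± 0.10 SE from 1 to 2 h, adjusted p = 1.6e-06). Another early change that went on was that of *CLN2*, which fell to 25.6 and 27.1 FPKM at 2 h (log2 -0.74 ± 0.07 SE from 1 to 2 h, adjusted p = 0.00041). Some early changes turned back. *MET3* returned to 20.6 and 19.3 FPKM at 2 h (log2 -0.96 ± 0.13 SE from 1 to 2 h, adjusted p = 0.0033). *KIN3* returned to 14.5 and 13.4 FPKM at 2 h (log2 0.97 ± 0.14 SE from 1 to 2 h, adjusted p = 0.0088), a call lost without 2 h replicate 1. *YRO2*, a relative of *HSP30*, fell in the first hour (log2 -0.82) and rose in the second, to 269 and 262 FPKM at 2 h (log2 2.19 ± 0.22 SE from 1 to 2 h, adjusted p = 0.00064). In a fit of the 4 libraries compared, *DSE2* kept its call and the other genes named here lost theirs. Leaving out 1 h replicate 2 left 15 tested genes higher and 52 lower, 2 h replicate 1 left 15 and 60, and 2 h replicate 2 left 22 and 55, against 54 and 167 with all libraries. This comparison shares the 1 h libraries with the main one, so a high or low value there moves both.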

How the data were processed

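The authors aligned reads of 50 bases to the sacCer3 genome with TopHat2 and estimated expression with Cufflinks and Cuffdiff, and deposited 1 FPKM value per gene and library with its confidence interval and status. rRNA had been depleted and the library kit does not mark the strand. How reads shared by gene copies were divided is not given in the sources used here. Because FPKM values are not counts, log2(FPKM + 1) was tested with limma 3.58.1 (R 4.3.3) in 1 fit of 8 conditions, over genes at 1 FPKM or more in at least 2 libraries, with Benjamini-Hochberg adjustment. Fragments per gene were estimated from the intervals. The precision is set by 2 libraries per group. Alternatives were centring, size factors, pseudocounts, filters, the libraries compared only, a replicate block, a stricter threshold and leaving out each library. The method was tested on simulated data. The columns of the authors' intervals gave depth only.

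The gene lists, motifs and rules were chosen with earlier results of these data known. A gene can stand in more than 1 list. Named genes were the 12 largest rises and falls at 300 bases or more called on both scales. The 3 most changed called genes of each list and direction, short or noncoding genes by a separate rule, and controls were added. For the interaction and the step from 1 h to 2 h, genes called in those same tests were added by size of change. The text gives a part of these. Promoters are the 500 bases before each start codon in RefSeq R64, searched for 13 motifs, with 6048 of 7126 identifiers matched. Figures and counts used Python 3.11.15.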

Additional observations from a re-analysis of the deposited data

Results flagged for a closer look

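The change at 1 h differed between WT and *lsm1∆* cells, by limma's test of the interaction with Benjamini-Hochberg adjustment, for 18 of the genes chosen for description. Part of these were chosen because this same test called them, so the number 18 says nothing about genes chosen on other grounds. Differences are the log2 change in *lsm1∆* minus that in WT, with 2 libraries in each of the 4 conditions and no explanation tested. Among genes that rose in WT, the difference was -1.95 for *HUG1* (adjusted p = 0.011), -1.745 for YOR302W, the upstream reading frame of *CPA1* (0.011), -1.159 for *MET16*, of sulfate reduction (0.046), -0.9928 for *ADH7*, an alcohol dehydrogenase that entered through its 1 h libraries alone (0.046), -0.9076 for *AMS1*, the vacuolar mannosidase (0.037), -0.8239 for *CLB1* (0.037), -0.8102 for *ECM4*, a glutathione transferase (0.032), -0.8079 for *VVS1*, a vacuolar membrane protein (0.037), and -0.6867 for *RNR4* (0.027). Of these *MET16* (0.062), *CLB1* (0.060) and *VVS1* (0.058) were not called with centring.

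Among genes that fell in WT, the difference was 0.5488 for *HTB1* (adjusted p = 0.037), 0.6415 for *BUD28*, which shares 372 of its 378 bases with *RPL22A* and cannot be told apart from it without strand (0.037), 0.7517 for *RPS22A* (0.037), 0.7594 for *RPS17A* (0.037), 1.151 for *HTA2* (0.038), 1.476 for *HO*, the mating type switching endonuclease (0.011), and 2.283 for *PIR1* (0.0043). *RHR2*, a glycerol phosphatase gene, was at log2 -0.11 in WT and 0.91 in *lsm1∆* (difference 1.026, adjusted p = 0.013), and *FAT3*, of fatty acid uptake, at 0.58 and 1.84 (difference 1.255, adjusted p = 0.037). Without *lsm1∆* untreated replicate 1 the calls of *HUG1*, *HO* and YOR302W were lost, and of the genes here *PIR1* alone kept its call whichever library was left out.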

How the results depend on the processing

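Fits of only the libraries compared called 847 genes higher and 308 lower at 1 h (included genes 834 and 306, against 2457 and 577), 3 and 0 for the interaction on the adjusted p and 1 and 1 from 1 to 2 h, and the same construction leaves fewer degrees of freedom. With centring the counts were 1014 and 1243 (included genes 989 and 1231), 246 genes higher by at least 2-fold against 393, 34 higher for the interaction and 69 lower from 1 to 2 h. With median-of-ratios size factors they were 1210 and 1101 (included genes 1165 and 1091), 31 higher for the interaction and 85 lower from 1 to 2 h. At an adjusted p below 0.01, 1681 genes were called higher at 1 h, 1 higher and 0 lower for the interaction, and 11 and 35 from 1 to 2 h. Among nuclear protein-coding genes alone, 141 genes were lower by at least 2-fold against 281, and 322 higher against 393, with no test in these counts. The other genes of the 281 were not nuclear protein-coding. The lower quartile of the 207 included tRNA genes was -1.19, all of them on fewer than 10 implied fragments. With nuclear protein-coding genes alone the interaction was called for 33 higher and 32 lower. Leaving out 1 library gave 1790 to 2371 genes higher and 419 to 584 lower at 1 h, 2 to 9 higher and 0 to 7 lower for the interaction, and 15 to 51 higher and 52 to 120 lower from 1 to 2 h. A pseudocount of 0.1, other filters on low values and leaving out failed estimates kept every count within 1.5 times.

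The replicate numbers share only a number: deviations of the same-numbered untreated and 1 h WT libraries correlated at -0.0016, and the 28 pairs of conditions ranged from -0.207 to 0.229. With the replicate block the counts were 2627 and 611 at 1 h, 42 and 42 for the interaction and 88 higher from 1 to 2 h.

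Of 163 named genes called at 1 h, 95 kept their call under every alternative, 37 lost it when 1 library was left out and 0 changed sign. Of the 40 list medians, 10 moved by more than the spread between replicates without WT 1 h HU replicate 1, 9 without replicate 2, 5 and 2 without untreated replicates 1 and 2, 36 with centring and 34 with size factors. Without 1 h HU replicate 1 and 2 in turn the median was 0.94 and 0.45 for hexose transporters (0.69 with all libraries). For ribosome biogenesis, cell wall, multidrug export and mitochondrially encoded genes, leaving out 1 library turned the sign of the median. The depth limits the 293 included genes with fewer than 10 implied fragments.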
